A study of Mus musculus with 24 samples.

Results

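The 8 genes described here encode ion channel subunits of keratinocytes: Scnn1a, Scnn1b and Scnn1g of the epithelial sodium channel, the potassium channel gene Kcnn4, the calcium-permeable channel genes Trpv3, Trpv4 and Trpv6, and the GABA receptor subunit gene Gabrp. They are 8 of the 19937 genes that could be named on the array. Each was taken by its gene symbol, and each has 1 probe set that carries that symbol alone. The genes were chosen by earlier results of these same arrays. Among the values known at that choice were the ligand effect on Gabrp in wild-type mock cells and those on Scnn1b, Scnn1g and Trpv6 in null Hras cells. These values, and every difference that contains them, are given below as a description with no p-value.

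The cells were primary mouse keratinocytes of strain C57/BL6, measured on 24 Affymetrix Mouse Gene 1.0 ST arrays in 8 groups of 3. Keratinocytes labelled Ppar-beta null ("null" below), which lack the fatty acid receptor PPAR-beta/delta, were set against wild-type (WT) keratinocytes. After 2 days of culture, cells of each genotype received a retrovirus carrying activated Hras and were kept for 48 h (Hras cells), or were mock infected (mock cells). Within each of these, cells were given the PPAR-beta ligand GW0742 at 1 uM for 24 h, or the vehicle DMSO. The 8 groups are therefore null Hras GW0742, null Hras DMSO, null mock GW0742, null mock DMSO, WT Hras GW0742, WT Hras DMSO, WT mock GW0742 and WT mock DMSO. The labels give no age or sex, and do not say whether replicates came from separate animals or cultures or whether mock cells received an empty virus. The p-values thus rest on array-to-array spread alone, and that spread may be technical.

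Expression is given as log2 of the array signal, so a difference of 1 is a factor of 2, and a gene passed when its adjusted p was under 0.05 in a limma fit over all 19937 genes. Levels are not compared between genes, since each probe set has its own brightness. The 3 arrays of null Hras GW0742 cells varied most among themselves, with a median SD over genes of 0.122, against 0.0647 to 0.0798 in the other groups. Each SE rests on 1 spread per gene that the fit shares over all 8 groups, not on the compared arrays alone. It can therefore understate the spread of null Hras GW0742 cells. Calls lost or gained when 1 array was left out are named with their values. The 7 markers that define keratinocytes were high on all arrays, and the basal keratin gene Krt5 had group means between 14.03 and 14.28. They too moved with Hras: their array means were 12.78 to 12.83 in null Hras DMSO against 13.11 to 13.15 in null mock DMSO cells, and 12.70 to 12.83 in WT Hras DMSO against 13.11 to 13.12 in WT mock DMSO cells. Under DMSO, 4 were lower and 1 higher with Hras in null cells, and 5 were lower in WT cells, where Trp63 had a group mean of 11.19 with Hras against 12.21 in mock cells and Col17a1 of 12.04 against 12.99. Markers of other cells moved with the groups as well. The array means of 7 fibroblast genes were 7.85 to 8.05 in null Hras DMSO, 7.63 to 7.74 in WT Hras DMSO, 8.30 to 8.34 in null mock DMSO and 8.88 to 8.94 in WT mock DMSO cells. Those of 8 melanocyte genes were 9.08 to 9.18 in null Hras DMSO, 9.04 to 9.20 in WT Hras DMSO, 9.83 to 9.89 in null mock DMSO and 10.11 to 10.18 in WT mock DMSO cells. The array means of the lists for leukocytes, endothelium and Merkel cells lay between 6.45 and 6.94 on every array, but single genes in them moved. H2-Ab1 of the leukocyte list had group means of 8.81 in null Hras GW0742 against 7.71 in null Hras DMSO cells. In WT Hras cells its means were 8.09 with GW0742 and 7.24 with DMSO. Of the 7 leukocyte genes, 3 were higher and 0 lower in null than in WT Hras DMSO cells. No value on this scale marks a gene as absent, and the part of any of these cells in the results was not tested.

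Epithelial sodium channels are built of alpha, beta and gamma subunits, encoded by Scnn1a, Scnn1b and Scnn1g, and carry sodium into the cell at the apical face of epithelia. In the epidermis they take part in sodium handling and in differentiation and barrier formation. Kcnn4 encodes the intermediate-conductance potassium channel opened by calcium through calmodulin, which sets the membrane voltage that drives calcium entry. TRPV3 and TRPV4 are warmth-sensitive cation channels of keratinocytes, TRPV4 also responding to cell swelling, while TRPV6 is a highly calcium-selective channel known for calcium uptake in intestine. Gabrp encodes the pi subunit of the GABA-A receptor, a chloride channel subunit found mainly outside the nervous system. PPAR-beta/delta is a ligand-activated transcription factor that binds DNA with the retinoid X receptor, and activated HRAS signals through the ERK pathway to AP-1 factors.

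The promoters of 4 genes are shown because Scnn1b, Scnn1g and Trpv3 were higher with GW0742 in Hras cells and Kcnn4 had the largest Hras effect of the 8. Each run holds the 250 bases before the RefSeq gene start on GRCm38.p6, 5′ to 3′ on the plus strand, which is the strand of these 4 genes. Scnn1b lies at chr7:121864788-121865037, Scnn1g at chr7:121734229-121734478, Kcnn4 at chr7:24370013-24370262 and Trpv3 at chr11:73267270-73267519. Scnn1g and Scnn1b are next to each other among protein-coding genes of chromosome 7. Capitals mark matches to the motifs described after the sequences.
Scnn1b: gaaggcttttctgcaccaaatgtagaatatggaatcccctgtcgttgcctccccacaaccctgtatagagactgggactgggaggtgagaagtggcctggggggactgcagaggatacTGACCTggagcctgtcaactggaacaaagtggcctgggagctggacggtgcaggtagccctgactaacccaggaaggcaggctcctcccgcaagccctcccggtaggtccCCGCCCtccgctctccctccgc
Scnn1g: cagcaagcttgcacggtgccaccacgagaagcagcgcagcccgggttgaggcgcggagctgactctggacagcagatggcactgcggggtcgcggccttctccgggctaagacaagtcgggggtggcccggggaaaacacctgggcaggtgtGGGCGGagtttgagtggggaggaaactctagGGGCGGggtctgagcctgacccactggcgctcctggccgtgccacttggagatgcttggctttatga
Kcnn4: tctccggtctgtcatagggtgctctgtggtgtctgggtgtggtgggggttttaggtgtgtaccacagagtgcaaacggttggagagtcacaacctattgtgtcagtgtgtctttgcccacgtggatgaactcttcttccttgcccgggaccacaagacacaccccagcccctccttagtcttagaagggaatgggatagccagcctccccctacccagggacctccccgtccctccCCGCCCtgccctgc
Trpv3: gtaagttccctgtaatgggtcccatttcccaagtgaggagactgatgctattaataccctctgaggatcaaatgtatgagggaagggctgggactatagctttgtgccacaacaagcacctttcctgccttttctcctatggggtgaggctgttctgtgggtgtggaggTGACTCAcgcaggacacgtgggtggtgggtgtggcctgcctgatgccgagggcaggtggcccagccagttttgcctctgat

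Promoters were found for 7 of the 8 genes, and 7 motifs were searched in them on both strands. The AP-1 motif TGANTCA was found in Trpv3 alone of the 7, at bases 81 to 75 before the start, and in 6.75% of all 32851 promoters of this length. The GC box GGGCGG was found in 4, Scnn1b, Scnn1g, Kcnn4 and Trpv4, against 32.7% of all promoters. The nuclear receptor hexamer AGGTCA was found in Scnn1b, at bases 132 to 127 before the start, and in Trpv6, against 14% of all promoters. A direct repeat of AGGNCA with 1 base between the copies, the arrangement bound by PPAR with the retinoid X receptor, was in 0 of the 7 and in 0.338% of all promoters. The steroid receptor arrangement of GNACA and TGTNC with 3 bases between them was in 0 of the 7 and in 0.387% of all. TATAAA (12.4% of all) and CCAAT (33.8% of all) were also in 0 of the 7. The direct repeat can contain the hexamer, and a match is a description of letters in this window, not of a bound site.

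The beta and gamma subunit genes of the sodium channel were higher with GW0742 in Hras cells of both genotypes, while their mock cells showed no call. Scnn1a was also higher with GW0742 in WT Hras cells, by less. Hras cells had less Scnn1a and more Scnn1b than mock cells, and Scnn1g was higher in Hras cells only in the comparison under GW0742.

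Scnn1g, the gamma subunit gene, had 8.54, 8.63 and 8.90 in WT Hras GW0742 cells, against 7.22, 7.59 and 7.54 in WT Hras DMSO cells. The lowest ligand-treated array lay almost 1 log2 unit above the highest DMSO array, so the groups did not overlap. The change was 1.24 ± 0.16 (SE, n = 3 each), or 2.37-fold (adjusted p = 2e-05). In null Hras cells Scnn1g had 8.47, 9.37 and 8.71 with GW0742, against 7.12, 7.63 and 7.53 with DMSO. The groups were again apart, and replicate 2 was the highest array of each group. The change there was 1.42 ± 0.16, and without replicate 2 of the null Hras GW0742 group it was 1.16. With the compared groups alone, the SE of the 1.42 was 0.23. In mock cells all 12 arrays lay between 7.45 and 7.70.

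Scnn1b, the beta subunit gene, had 9.05, 9.18 and 9.45 in WT Hras GW0742 cells, against 7.87, 8.07 and 8.26 in WT Hras DMSO cells. These groups did not overlap, and the change was 1.16 ± 0.16, or 2.23-fold (adjusted p = 4.01e-05). In null Hras cells Scnn1b had 9.15, 9.90 and 9.21 with GW0742, against 7.86, 8.52 and 8.24 with DMSO. All ligand-treated arrays were above all DMSO arrays, with a change of 1.21 ± 0.16, and of 0.97 without replicate 2 of the null Hras GW0742 group. With the compared groups alone, the SE of the 1.21 was 0.22. Mock cells had 7.02 to 7.10 in null GW0742, 6.92 to 7.07 in null DMSO, 7.27 to 7.34 in WT GW0742 and 7.18 to 7.30 in WT DMSO, ranges that overlapped within each genotype. All of these mock values were dim, below the array medians of 7.46 to 7.53.

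The ligand effect itself was larger in Hras than in mock cells of WT genotype, by 1.10 ± 0.23 for Scnn1b (adjusted p = 0.00822) and by 1.39 ± 0.23 for Scnn1g (adjusted p = 0.00121). In null cells the same differences were 1.17 ± 0.23 and 1.42 ± 0.23. The ligand effect in Hras cells, null minus WT, was 0.05 ± 0.23 for Scnn1b and 0.18 ± 0.23 for Scnn1g, differences within their own errors.

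Scnn1a, the alpha subunit gene, had 8.86, 8.85 and 9.05 in WT Hras GW0742 cells, against 8.16, 8.54 and 8.74 in WT Hras DMSO cells. The groups were apart by a small margin. Scnn1a rose by 0.44 ± 0.11, or 1.36-fold (adjusted p = 0.02). The call was lost without WT Hras GW0742 replicate 3 (0.38, adjusted p = 0.126) and without WT Hras DMSO replicate 1 (0.28, adjusted p = 0.172). In null Hras cells it had 9.04, 9.24 and 9.12 with GW0742, against 8.60, 8.85 and 8.76 with DMSO. These groups were apart too, but the change of 0.39 ± 0.11 did not pass (adjusted p = 0.0507). It passed without null Hras GW0742 replicate 1 (0.44, adjusted p = 0.0293), without the dimmest genes (adjusted p = 0.0254), with trend and robust moderation (0.0335) and with the replicate number as a block (0.00684). The Hras minus mock difference of the ligand effect did not pass for Scnn1a in WT cells (0.55 ± 0.16, adjusted p = 0.0846) or null cells (0.41 ± 0.16, adjusted p = 0.264). The WT difference passed without WT Hras DMSO replicate 3 (0.68, adjusted p = 0.0184), without the dimmest genes (0.0444) and with the block (0.0123).

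Hras cells had less Scnn1a than mock cells in all 4 comparisons. Under DMSO, null cells had 8.60, 8.85 and 8.76 with Hras, against 10.18, 10.40 and 10.51 in mock cells, and fell by 1.63 ± 0.11 (adjusted p = 1.23e-10). WT cells had 8.16, 8.54 and 8.74 with Hras, against 10.01, 10.29 and 10.20 in mock cells. The groups were more than 1 log2 unit apart, a 3.22-fold lower level (-1.69 ± 0.11, adjusted p = 7.23e-11). Under GW0742 the changes were -1.22 ± 0.11 in null cells (adjusted p = 1.18e-08) and -1.14 ± 0.11 in WT cells (adjusted p = 4.06e-08). The array means of 6 measured suprabasal keratinocyte genes moved alongside, at 9.95 to 10.13 in null Hras DMSO against 12.10 to 12.20 in null mock DMSO cells, and at 9.25 to 9.65 in WT Hras DMSO against 12.13 to 12.22 in WT mock DMSO cells. Of these 6 genes, 4 fell and 1 rose in null cells, and 5 fell in WT cells, under DMSO. Their part in the Scnn1a result was not tested, and in such bulk samples fewer cells of a type and less RNA per cell cannot be told apart.

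Scnn1b rose in Hras over mock cells under DMSO, by 1.19 ± 0.16 in null cells (adjusted p = 2.18e-06) and by 0.81 ± 0.16 in WT cells (adjusted p = 0.000271). Under GW0742 the rises were 2.36 ± 0.16 in null cells (5.13-fold, adjusted p = 7.27e-11) and 1.92 ± 0.16 in WT cells (3.78-fold, adjusted p = 2.24e-09). Under DMSO the Scnn1g values of -0.12 ± 0.16 in null (adjusted p = 0.637) and -0.18 ± 0.16 in WT cells (adjusted p = 0.459) did not pass. Under GW0742 it was higher in Hras cells by 1.30 ± 0.16 in null (adjusted p = 7.53e-07) and 1.22 ± 0.16 in WT cells (adjusted p = 2.48e-06). The comparisons under DMSO and the ligand comparisons share the Hras DMSO arrays, so their values are set side by side only. Those under GW0742 likewise share the Hras GW0742 arrays. In null cells these arrays gave the ligand values known at the choice of Scnn1b and Scnn1g. The p-values of the null comparisons are thus not independent of that choice.

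No genotype difference in the subunit genes passed in the fit over all 8 groups. Null minus WT values ran between 0.20 and 0.29 for Scnn1a, between -0.25 and 0.20 for Scnn1b, and between -0.08 and 0.16 for Scnn1g over the 4 conditions. For Scnn1a in mock GW0742 cells, the arrays were at 10.33, 10.36 and 10.36 in null and at 9.97, 10.05 and 10.16 in WT cells. These did not overlap, yet 0.29 ± 0.11 did not pass (adjusted p = 0.0782), although it passed without the dimmest genes (adjusted p = 0.0457), with the replicate number as a block (0.015) and with the compared groups alone (0.00845). In Hras DMSO cells the Scnn1a value of 0.26 ± 0.11 passed without WT Hras DMSO replicate 3 (0.39, adjusted p = 0.0203) and with the block (0.0311). Scnn1b in mock cells passed with the compared groups alone (adjusted p = 0.00766 for -0.25 with GW0742 and 0.0459 for -0.24 with DMSO).

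**Figure D1:**
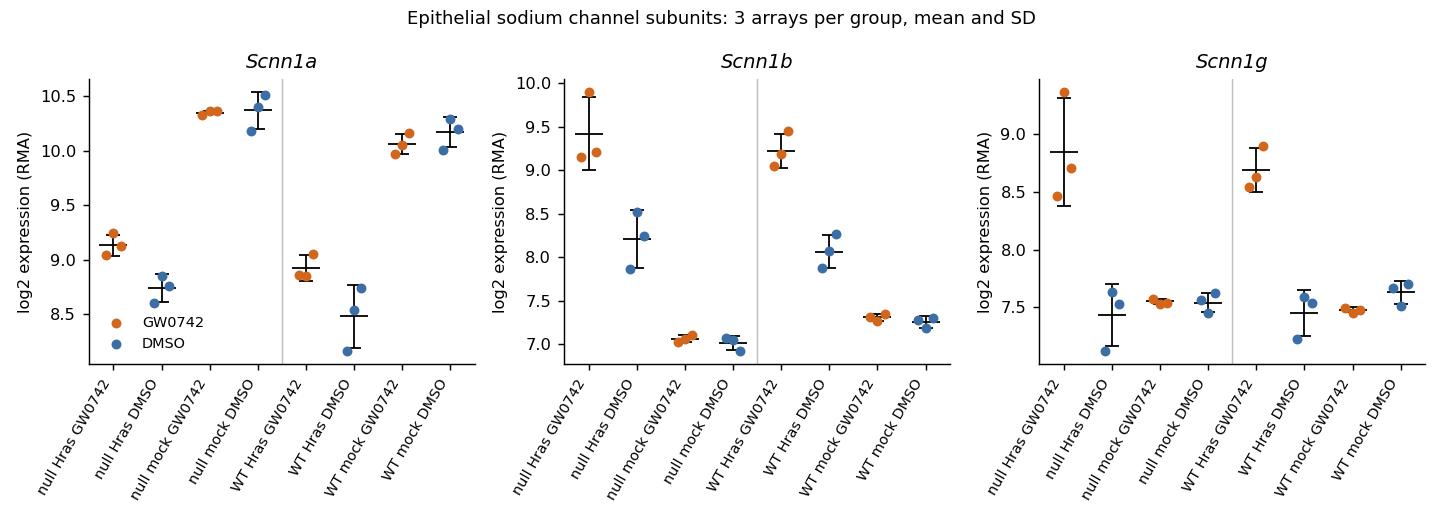
Log2 expression of Scnn1a, Scnn1b and Scnn1g in the 8 groups, with 1 point per array (orange GW0742, blue DMSO) and bars for the mean and SD of 3 arrays; the vertical axes differ in range. Scnn1a was highest in mock cells, whereas Scnn1b and Scnn1g were highest in Hras GW0742 cells of both genotypes.

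The order of levels differed between the subunits. For Scnn1a the 4 mock groups (means 10.06 to 10.37) stood above the 4 Hras groups (8.48 to 9.13), and neighbouring Hras groups overlapped in their arrays. For Scnn1b the order was null Hras GW0742 (9.42), WT Hras GW0742 (9.22), null Hras DMSO (8.21), WT Hras DMSO (8.06), then the mock groups (7.01 to 7.31); the genotypes overlapped within each Hras condition. For Scnn1g only the Hras GW0742 groups (8.85 null, 8.69 WT) stood apart, and the other 6 had means of 7.43 to 7.63, with every neighbour in the order overlapping.

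Kcnn4, the calcium-activated potassium channel gene, was far higher in Hras than in mock cells, and less so in null cells. Null Hras DMSO cells had 11.77, 11.56 and 11.43, against 7.21, 7.27 and 7.24 in null mock DMSO cells. WT Hras DMSO cells had 12.38, 12.32 and 12.19, against 7.31, 7.31 and 7.49 in WT mock DMSO cells. No Hras array came within 3 log2 units of a mock array. The rise was 4.34 ± 0.10 in null cells, or 20.3-fold (adjusted p = 1.79e-18), and 4.92 ± 0.10 in WT cells, or 30.4-fold (adjusted p = 3.31e-19). The mock group means of Kcnn4, 7.18 to 7.37, lay below the array medians of 7.46 to 7.53, so its fold values rest on a dim baseline.

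Under GW0742 the same comparison gave 4.06 ± 0.10 in null cells (16.7-fold, adjusted p = 5.19e-18) and 4.96 ± 0.10 in WT cells (31.2-fold, adjusted p = 1.41e-19). The Hras effect was thus smaller in null than in WT cells, with null minus WT differences of -0.58 ± 0.14 under DMSO (adjusted p = 0.00462) and -0.90 ± 0.14 under GW0742 (adjusted p = 4.32e-05). Among Hras cells, Kcnn4 fell in null relative to WT cells, by 0.71 ± 0.10 with DMSO (adjusted p = 1.61e-05) and by 1.05 ± 0.10 with GW0742 (adjusted p = 6.52e-08), and the genotypes' arrays did not overlap. Among mock cells the differences of -0.13 ± 0.10 and -0.15 ± 0.10 did not pass (adjusted p = 0.491 with DMSO and 0.322 with GW0742).

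Kcnn4 fell with GW0742 in null Hras cells, which had 11.53, 11.06 and 11.14 with the ligand, against 11.77, 11.56 and 11.43 with DMSO. These groups overlapped, and the change was -0.34 ± 0.10 (adjusted p = 0.0437). The call was lost without null Hras GW0742 replicate 2 (-0.25, adjusted p = 0.281) or 3 (-0.29, adjusted p = 0.165), and likewise without null Hras DMSO replicate 1 (-0.25, adjusted p = 0.235) or 2 (-0.35, adjusted p = 0.0907). Set against WT, this ligand effect did not differ past the test (-0.34 ± 0.14, adjusted p = 0.325), nor did it set against null mock cells (-0.28 ± 0.14, adjusted p = 0.405). Both differences passed without null Hras GW0742 replicate 1 (-0.49, adjusted p = 0.0167, and -0.43, adjusted p = 0.0289). WT Hras arrays lay between 12.23 and 12.34 with GW0742 and between 12.19 and 12.38 with DMSO.

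Markers of simple and secretory gland epithelium moved in the same direction as Kcnn4. The array means of these 6 genes were 9.41 to 9.67 in null Hras DMSO against 7.91 to 8.04 in null mock DMSO cells, and 9.88 to 10.13 in WT Hras DMSO against 7.79 to 7.91 in WT mock DMSO cells. Of the 6, 5 rose with Hras under DMSO in each genotype and 4 fell in null relative to WT Hras DMSO cells. Their part in the Kcnn4 result was not tested.

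Gabrp, the GABA-A pi subunit gene, moved with Hras in opposite directions in the genotypes: it was lower in null Hras than in null mock cells and higher in WT Hras than in WT mock cells. Null Hras DMSO cells had 9.76, 9.37 and 9.35, against 11.69, 11.78 and 11.62 in null mock DMSO cells. WT Hras DMSO cells had 11.81, 12.01 and 11.65, against 10.60, 10.80 and 10.60 in WT mock DMSO cells. Neither pair overlapped.

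The Hras effect on Gabrp under DMSO was -2.20 ± 0.15 in null cells, a 4.60-fold lower level (adjusted p = 5.13e-11), and 1.16 ± 0.15 in WT cells, a 2.23-fold higher level (adjusted p = 1.11e-06). Its null minus WT difference was -3.36 ± 0.21 (adjusted p = 1.52e-09). Under GW0742, null cells had 9.72, 9.01 and 8.89 with Hras against 11.73, 11.71 and 11.72 in mock cells, and WT cells had 11.38, 11.39 and 11.44 with Hras against 9.41, 9.38 and 9.50 in mock cells. The effects were -2.52 ± 0.15 (adjusted p = 6.19e-12) and 1.97 ± 0.15 (adjusted p = 3.61e-10), with a null minus WT difference of -4.49 ± 0.21 (adjusted p = 1.41e-11). None of these pairs of groups overlapped. The WT mock arrays also gave the ligand value known at the choice of Gabrp, so p-values that use them are not independent of it.

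Set by genotype, Gabrp was higher in null than in WT mock cells, by 1.03 ± 0.15 with DMSO (adjusted p = 4.73e-05) and by 2.29 ± 0.15 with GW0742 (adjusted p = 4.44e-10). These 2 tests use the same WT mock arrays, and the larger GW0742 value includes the known ligand effect in WT mock cells. Among Hras cells it was lower in null, with -2.33 ± 0.15 for DMSO (5.03-fold lower, adjusted p = 5.49e-10) and -2.20 ± 0.15 for GW0742 (4.58-fold lower, adjusted p = 5.74e-10). Fibroblast markers also differed by genotype in mock cells, where 6 of 7 were lower in null DMSO cells, and 4 of 7 were higher in null Hras DMSO cells. Melanocyte markers were lower for 5 of 8 genes in null mock DMSO cells and passed for 0 of 8 in null Hras DMSO cells. The part of these cells in the Gabrp values was not tested.

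With the ligand, Gabrp was lower in WT mock cells, at 9.41, 9.38 and 9.50 against 10.60, 10.80 and 10.60 with DMSO, a change of -1.23 ± 0.15. In null mock cells it had 11.73, 11.71 and 11.72 with GW0742, inside the range of 11.62 to 11.78 with DMSO. The null minus WT difference of this ligand effect was 1.26 ± 0.21, and the Hras minus mock difference in WT cells was 0.81 ± 0.21. In Hras cells the ligand changes of -0.29 ± 0.15 in null and -0.42 ± 0.15 in WT cells did not pass (adjusted p = 0.33 in null and 0.103 in WT), although in WT cells the ligand-treated arrays, 11.38 to 11.44, lay below the DMSO arrays, 11.65 to 12.01. That WT change passed with the compared groups alone (adjusted p = 0.0373) and when the null Hras GW0742 group was left out of the model (0.00718). The null change passed without null Hras GW0742 replicate 1 (-0.54, adjusted p = 0.00187) and was -0.13 without replicate 3 of that group. Its Hras minus mock difference in null cells, -0.32 ± 0.21 (adjusted p = 0.596), also passed without that replicate 1 (-0.57, adjusted p = 0.0234).

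**Figure D2:**
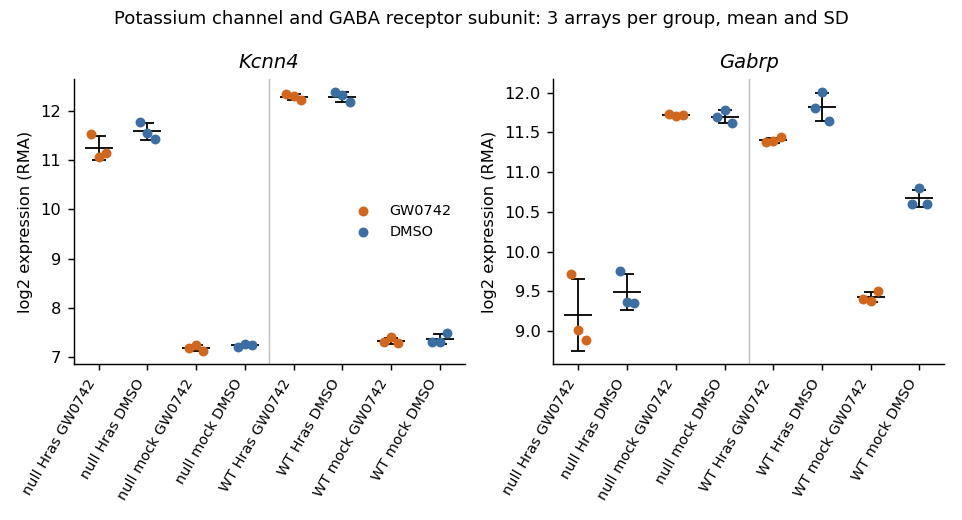
Log2 expression of Kcnn4 and Gabrp in the 8 groups, with 1 point per array (orange GW0742, blue DMSO) and bars for the mean and SD of 3 arrays. Kcnn4 was above 11 in all Hras arrays and below 7.5 in all mock arrays, while Gabrp was low in null Hras and WT mock GW0742 cells.

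For Kcnn4 the order was WT Hras GW0742 and WT Hras DMSO (12.29 each, overlapping), null Hras DMSO (11.59) and null Hras GW0742 (11.25, overlapping), then the mock groups (7.18 to 7.37). For Gabrp it was WT Hras DMSO (11.82), null mock GW0742 (11.72) and null mock DMSO (11.70), which overlapped, then WT Hras GW0742 (11.40) and WT mock DMSO (10.67), each apart. Null Hras DMSO (9.49), WT mock GW0742 (9.43) and null Hras GW0742 (9.20), which overlapped, came last.

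Of the TRPV genes, Trpv3 was higher with GW0742 in Hras cells of both genotypes, Trpv4 was higher in Hras than in mock cells throughout, and Trpv6 was lower in Hras than in mock cells throughout.

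Trpv3, the warmth-sensitive channel gene, had 10.32, 10.60 and 10.55 in null Hras GW0742 cells, against 9.75, 10.15 and 10.06 in null Hras DMSO cells. WT Hras cells had 9.79, 9.95 and 10.16 with GW0742, against 9.20, 9.43 and 9.68 with DMSO. Neither pair overlapped. Trpv3 rose by 0.50 ± 0.11 in null Hras cells (1.42-fold, adjusted p = 0.00834) and by 0.53 ± 0.11 in WT Hras cells (1.44-fold, adjusted p = 0.00357). The null call was lost without null Hras GW0742 replicate 2 (0.45, adjusted p = 0.0699) and without null Hras DMSO replicate 1 (0.38, adjusted p = 0.0682). The Hras minus mock difference of the ligand effect passed in WT cells (0.62 ± 0.16, adjusted p = 0.0367), a call lost in 9 of 12 fits that left out 1 array, all but those without WT Hras GW0742 replicate 1, WT Hras DMSO replicate 3 or WT mock DMSO replicate 1 (0.50 to 0.74 over the 12, highest adjusted p = 0.131), and did not pass in null cells (0.54 ± 0.16, adjusted p = 0.0929). The null difference passed without null Hras GW0742 replicate 1 (0.63, adjusted p = 0.0255), without the dimmest genes (0.0461) and with the replicate block (0.0324). The suprabasal markers moved with GW0742 in Hras cells as well: of 6 genes, 2 were higher and 0 lower in null cells and 3 were higher and 1 lower in WT cells, and their part in the ligand results was not tested. Melanocyte markers were higher for 6 of 8 genes with GW0742 in null Hras cells and passed for 0 of 8 in WT Hras cells.

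The Hras effect on Trpv3 also differed between genotypes. Under DMSO, Trpv3 rose in null Hras over null mock cells by 0.69 ± 0.11 (9.34, 9.21 and 9.35 in mock cells, adjusted p = 2.31e-05). In WT cells the change of -0.25 ± 0.11 did not pass (9.62, 9.74 and 9.71 in mock cells, adjusted p = 0.0782), with overlapping arrays, although it passed after each array was centred on its median (-0.28, adjusted p = 0.0466), without the dimmest genes (0.0484) and with the replicate block (0.0304). It also passed without WT Hras DMSO replicate 3 (-0.37, adjusted p = 0.0114), and was -0.14 without replicate 1 of that group. This difference between effects, null minus WT, was 0.94 ± 0.16 under DMSO (adjusted p = 0.000196) and 0.87 ± 0.16 under GW0742 (adjusted p = 0.000273), where Hras raised Trpv3 by 1.23 ± 0.11 in null cells (adjusted p = 6.09e-09) and by 0.36 ± 0.11 in WT cells (adjusted p = 0.0127). That WT call was lost without WT Hras GW0742 replicate 3 (0.27, adjusted p = 0.0943).

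Between genotypes, Trpv3 was higher in null than in WT Hras cells, by 0.55 ± 0.11 with DMSO (adjusted p = 0.000952) and 0.53 ± 0.11 with GW0742 (adjusted p = 0.00131). The suprabasal markers differed alongside: 5 of 6 were higher in null than in WT Hras cells under each ligand condition, with a list median of 0.76 under DMSO and 0.59 under GW0742. Their Hras effects, null minus WT, were higher for 5 of 6 under DMSO and for 3 of 6 under GW0742. Their part in the Trpv3 results was not tested. In mock cells it was lower in null, at -0.39 ± 0.11 with DMSO (adjusted p = 0.0253) and -0.34 ± 0.11 with GW0742 (adjusted p = 0.0302). These mock calls were weak: leaving out 1 array ended the first in 4 of 6 fits (without WT mock DMSO replicates 2 and 3 and null mock DMSO replicates 2 and 3, -0.42 to -0.34 over the 6 fits, highest adjusted p = 0.109) and the second in 6 of 6 (-0.36 to -0.32, highest adjusted p = 0.0881).

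Trpv4, the channel gene that also responds to swelling, had 10.49, 10.56 and 10.47 in null Hras DMSO cells, against 9.38, 9.48 and 9.61 in null mock DMSO cells. WT Hras DMSO cells had 10.62, 10.63 and 10.57, against 9.94, 9.88 and 10.04 in WT mock DMSO cells. All Hras arrays lay above all mock arrays. Trpv4 rose by 1.02 ± 0.07 in null cells (2.02-fold, adjusted p = 4.72e-11) and by 0.65 ± 0.07 in WT cells (1.57-fold, adjusted p = 5.34e-08). Under GW0742 the rises were 0.92 ± 0.07 in null (adjusted p = 2.19e-10) and 0.43 ± 0.07 in WT cells (adjusted p = 1.98e-05). Compared between genotypes, the Hras effect differed (null minus WT) by 0.36 ± 0.10 under DMSO (adjusted p = 0.0101) and 0.49 ± 0.10 under GW0742 (adjusted p = 0.000543).

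Trpv4 fell with GW0742 in WT Hras cells, to 10.28, 10.25 and 10.14 against 10.62, 10.63 and 10.57 with DMSO, with no overlap (-0.39 ± 0.07, 1.31-fold lower, adjusted p = 0.000588). In null Hras cells the ligand-treated arrays had 10.54, 10.32 and 10.35, overlapping the DMSO arrays (-0.10 ± 0.07, adjusted p = 0.484). Between genotypes the ligand effects did not differ past the test (0.28 ± 0.10, adjusted p = 0.204). In mock cells the WT value of -0.16 ± 0.07 did not pass either (adjusted p = 0.261). Between genotypes, Trpv4 was lower in null than in WT mock cells, by -0.46 ± 0.07 with DMSO (adjusted p = 6.09e-05) and -0.31 ± 0.07 with GW0742 (adjusted p = 0.00163). In Hras cells the null minus WT values were -0.10 ± 0.07 with DMSO and 0.18 ± 0.07 with GW0742 (adjusted p = 0.361 for DMSO and 0.062 for GW0742). The GW0742 value passed without null Hras GW0742 replicate 2 (0.22, adjusted p = 0.044), without the dimmest genes (0.0336) and with trend and robust moderation (0.0377).

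Trpv6, the calcium-selective channel gene, had 8.51, 8.44 and 8.15 in null Hras DMSO cells, against 8.70, 8.71 and 8.71 in null mock DMSO cells. WT Hras DMSO cells had 7.96, 8.16 and 8.13, against 8.46, 8.43 and 8.50 in WT mock DMSO cells. Both pairs were apart. Trpv6 fell by 0.34 ± 0.10 in null (adjusted p = 0.00719) and by 0.38 ± 0.10 in WT cells (adjusted p = 0.00374) under DMSO, and under GW0742 by 1.04 ± 0.10 in null (2.05-fold, adjusted p = 1.35e-08) and by 0.66 ± 0.10 in WT cells (1.58-fold, adjusted p = 1.06e-05). The null DMSO call was lost without null Hras DMSO replicate 3 (-0.23, adjusted p = 0.0708). Both null comparisons use arrays of the ligand value known at the choice of Trpv6, so their p-values are not independent of it. Under GW0742 the genotype difference of the Hras effect did not pass (-0.37 ± 0.14, adjusted p = 0.0552), although it passed without null Hras GW0742 replicate 1 (-0.53, adjusted p = 0.000856), without the dimmest genes (0.0303) and with trend and robust moderation (0.0379).

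With GW0742, Trpv6 was lower in null Hras cells, at 8.09, 7.60 and 7.65 against 8.51, 8.44 and 8.15 with DMSO, a change of -0.59 ± 0.10. The groups were apart by less than 0.1 log2 units, and the change was -0.50 without null Hras GW0742 replicate 2. In null cells the Hras minus mock difference of the ligand effect was -0.70 ± 0.14. In WT Hras cells the arrays were at 7.73, 7.83 and 7.79, against 7.96, 8.16 and 8.13 with DMSO, apart but not past the test (-0.30 ± 0.10, adjusted p = 0.0772). That WT change passed without the dimmest genes (adjusted p = 0.0405), with trend and robust moderation (0.0465) and when the null Hras GW0742 group was left out of the model (0.0119). Between genotypes Trpv6 was higher in null mock GW0742 than in WT mock GW0742 cells (0.37 ± 0.10, adjusted p = 0.00772). In mock DMSO cells the null minus WT value of 0.25 ± 0.10 did not pass (adjusted p = 0.129), although it passed with the compared groups alone (0.0156) and when the null Hras GW0742 group was left out of the model (0.0305). Trpv6 was also higher in null than in WT Hras DMSO cells (0.28 ± 0.10, adjusted p = 0.0477), a call that was lost in 5 of 6 fits with 1 array left out: without null Hras DMSO replicate 1 (adjusted p = 0.2) or 2 (0.164), and without WT Hras DMSO replicate 1 (0.196), 2 (0.0596) or 3 (0.0673).

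**Figure D3:**
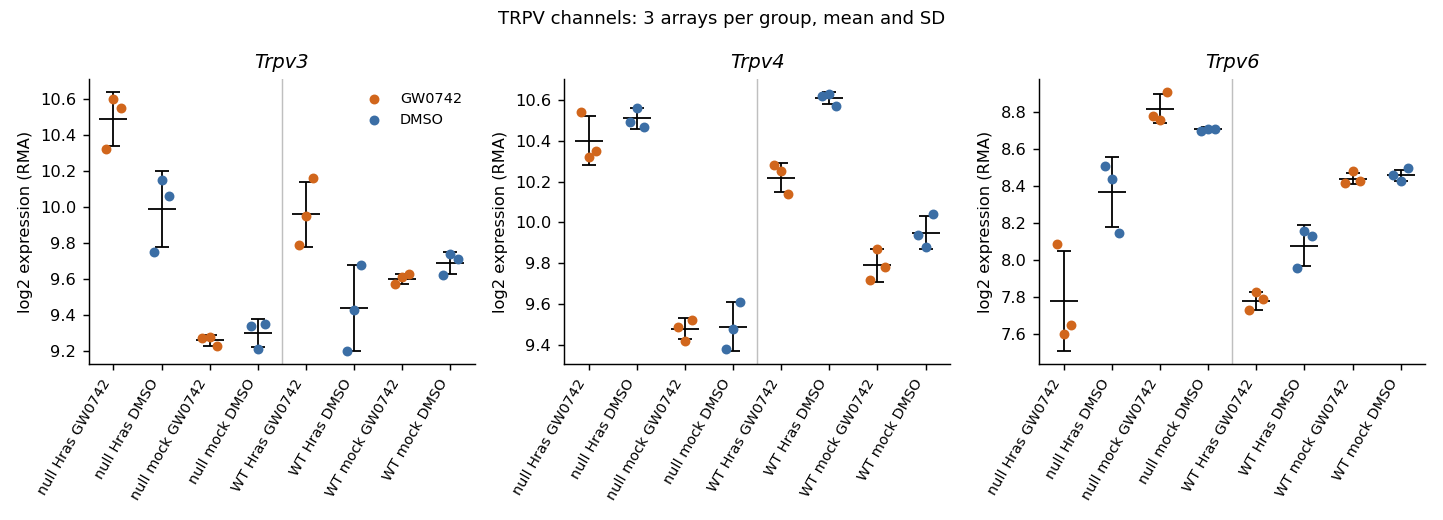
Log2 expression of Trpv3, Trpv4 and Trpv6 in the 8 groups, with 1 point per array (orange GW0742, blue DMSO) and bars for the mean and SD of 3 arrays; the vertical axes differ in range. Trpv3 peaked in null Hras GW0742 cells, Trpv4 was higher in all Hras groups than in the mock groups, and Trpv6 was lowest in the Hras GW0742 groups.

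The level order of Trpv3 began with null Hras GW0742 (10.49), apart from null Hras DMSO (9.99) and WT Hras GW0742 (9.96), which overlapped, and ended with null mock DMSO (9.30) and null mock GW0742 (9.26), which overlapped. For Trpv4 the Hras groups (10.22 to 10.61) came first and the WT mock groups (9.95 DMSO, 9.79 GW0742) stood apart from the null mock groups (9.49 DMSO, 9.48 GW0742). For Trpv6 null mock GW0742 (8.82), null mock DMSO (8.71) and the WT mock groups (8.44 to 8.46) were followed by overlapping Hras groups, down to 7.78 in both Hras GW0742 groups.

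**Figure D4:**
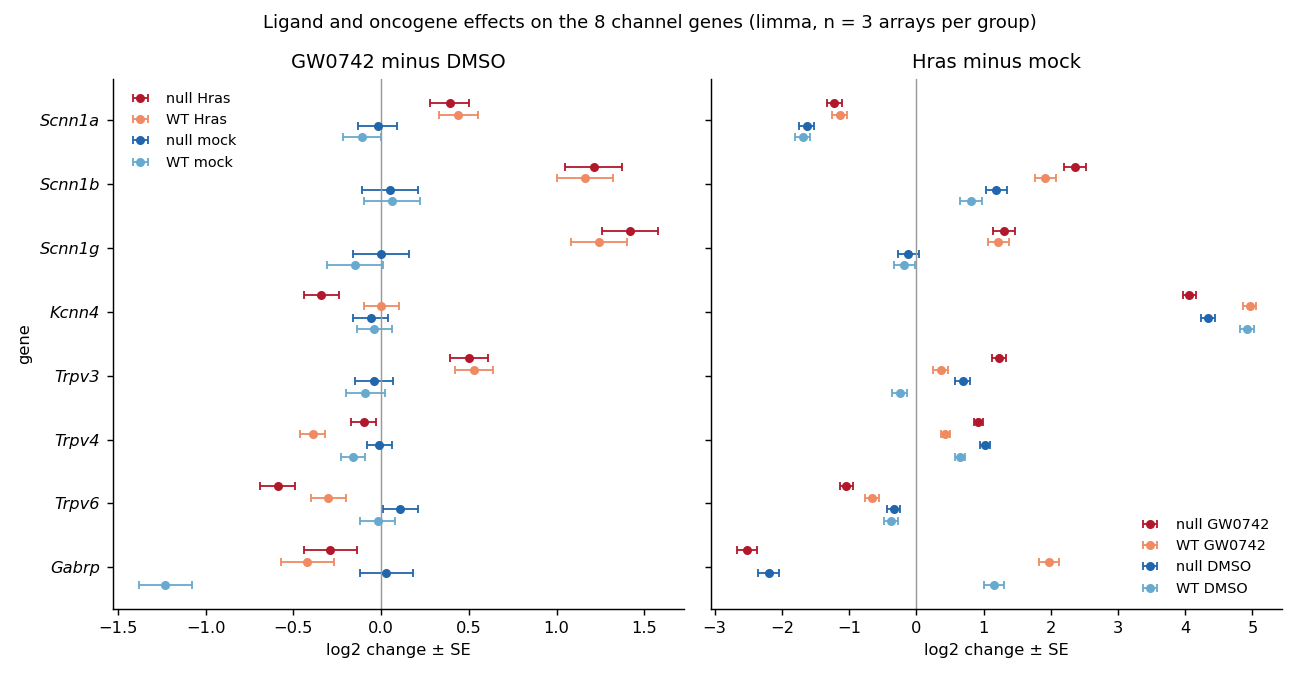
Log2 changes with SE from the limma fit for the 8 genes (rows), left for GW0742 minus DMSO in null Hras, WT Hras, null mock and WT mock cells, right for Hras minus mock under each ligand and genotype. The mock ligand effects lie near 0 apart from Gabrp in WT cells, and Gabrp is the gene whose Hras effects lie far on opposite sides of 0 in the genotypes.

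The number of the 8 genes that passed is given beside the share of all 19937 genes that passed in the same comparison. Because the genes were chosen from earlier results of these arrays, nothing is read from these counts. The values known at the choice of the genes are set aside from the counts of ligand effects. GW0742 against DMSO in null Hras cells then leaves 5 genes, of which Trpv3 (higher) and Kcnn4 (lower) passed (5.02% of all genes). In WT Hras cells 5 of 8 passed (4 higher, 1 lower; 6.11% of all genes). In WT mock cells, with Gabrp set aside, limma called 0 of the other 7 (2.86% of all genes). With an unadjusted p under 0.05 it called 2613 of all genes and, of those 7, Trpv4 alone. In null mock cells limma called 0 of 8, and 0% of all genes. At an unadjusted p under 0.05 the counts there were 0 of the 8 and 1097 of all genes. Hras against mock passed for 8 of 8 under GW0742 in null cells (41.8% of all genes), for 7 under DMSO in null cells (40.7%), for 8 under GW0742 in WT cells (35.2%) and for 6 under DMSO in WT cells (37.4%). Null against WT passed for 3 in Hras GW0742 (21.1%), 4 in Hras DMSO (19.4%), 4 in mock GW0742 (22%) and 3 in mock DMSO cells (10.4%).

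Among the differences between effects, the null minus WT difference of the Hras effect passed for Kcnn4, Trpv3, Trpv4 and Gabrp under both GW0742 (24.1% of all genes) and DMSO (16.8%). The null minus WT difference of the ligand effect in mock cells, with Gabrp set aside, was called by limma for 0 of the other 7 (0.848% of all genes). With an unadjusted p under 0.05 it was called for 1842 of all genes and for 0 of those 7. In Hras cells, with Scnn1b, Scnn1g and Trpv6 set aside, limma called it for 0 of the other 5 (1.73% of all genes). At an unadjusted p under 0.05 the calls were 2093 of all genes and, of those 5, Kcnn4 and Trpv4. The Hras minus mock difference of the ligand effect in null cells, with Scnn1b, Scnn1g and Trpv6 set aside, was called for 0 of the other 5 (1.62% of all genes). With an unadjusted p under 0.05 it was called for 2483 of all genes and, of those 5, for Scnn1a and Trpv3. In WT cells, with Gabrp set aside, it passed for Scnn1b, Scnn1g and Trpv3 (2.47% of all genes). The median change of the 8 genes with GW0742 was 0.14 in null Hras and 0.22 in WT Hras cells, beside medians over all genes of 0.00 and -0.01.

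Of 31 measured genes that regulate or accompany the sodium channel, 3 rose and 2 fell with GW0742 in WT Hras cells, where 6.11% of all genes passed, with a list median of 0.02 beside -0.01 over all genes. The deubiquitinase gene Usp2 rose by 0.74 ± 0.13 (adjusted p = 0.000641) and the glucocorticoid receptor gene Nr3c1 by 0.39 ± 0.07 (adjusted p = 0.000433). Sgk1, whose kinase increases channel number at the cell surface, fell by 0.41 ± 0.05 (adjusted p = 3.31e-06). In null Hras cells 5 rose and 2 fell, where 5.02% of all genes passed.

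With Hras in WT DMSO cells, where 37.4% of all genes passed, 13 of the 31 rose and 6 fell, with a list median of 0.11 beside 0.02 over all genes. Serine proteases at the cell surface moved in both directions: Tmprss11e rose by 3.01 ± 0.06 (adjusted p = 3.43e-19) and Tmprss11d by 1.89 ± 0.11 (adjusted p = 1.27e-11), whereas Tmprss4, known to cleave the gamma subunit, changed by -2.41 ± 0.12 (adjusted p = 7.05e-13). Fxyd5, a regulator of the sodium pump, rose by 2.94 ± 0.09 (adjusted p = 2.49e-16). Between genotypes in Hras GW0742 cells, where 21.1% of all genes passed, 6 were higher and 8 lower in null cells. Tmprss11d (1.35 ± 0.11) and Tmprss4 (1.17 ± 0.12) were higher in null cells, whereas Tmprss2 was lower (-0.55 ± 0.08, adjusted p = 1.59e-05). Stk39, a kinase gene of the ion transport pathway, was lower too (-0.67 ± 0.07, adjusted p = 1.34e-07).

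Of 33 other potassium channel genes measured, 3 rose and 7 fell with Hras in WT DMSO cells (37.4% of all genes passed), with a list median of 0.01 beside 0.02 over all genes. Kcnk6, a background potassium channel gene, changed by -0.99 ± 0.06 (adjusted p = 1.72e-11), and Kcnmb1, a regulatory subunit of the large-conductance calcium-activated channel, by -0.95 ± 0.11 (adjusted p = 4.19e-07). Kcnk6 was higher in null than in WT Hras GW0742 cells (0.87 ± 0.06, adjusted p = 1.33e-09), where 4 of the list were higher and 0 lower (21.1% of all genes passed). GW0742 in WT Hras cells moved 1 up and 1 down (6.11% of all genes passed).

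Of 33 measured TRP and calcium-handling genes, 6 rose and 8 fell with Hras in WT DMSO cells (37.4% of all genes passed), with a list median of -0.01. Trpc1 changed by -0.91 ± 0.08 (adjusted p = 6.63e-09) and Stim1, the calcium sensor of the endoplasmic reticulum, by -0.74 ± 0.06 (adjusted p = 5.42e-10). GW0742 in WT Hras cells (6.11% of all genes passed) called 3 genes, all lower: the inositol trisphosphate receptor genes Itpr2 (-0.42 ± 0.06) and Itpr3 (-0.26 ± 0.06), and Orai1, the pore of store-operated calcium entry (-0.25 ± 0.07, adjusted p = 0.0264). Of 26 measured GABA system genes, 3 rose and 3 fell with Hras in WT DMSO cells (37.4% of all genes passed). The receptor subunit gene Gabre rose by 1.56 ± 0.09 (adjusted p = 8.07e-12), and Abat, whose enzyme breaks GABA down, changed by -0.80 ± 0.08 (adjusted p = 8.67e-08). GW0742 in WT Hras cells (6.11% of all genes passed) called 1 of the list, Gabre, which changed by -0.40 ± 0.09 (adjusted p = 0.00918). GW0742 in WT mock cells (2.86% of all genes passed) called 3 lower and 0 higher. In null against WT Hras GW0742 cells (21.1% of all genes passed) 2 were higher and 1 lower, the lower being the metabotropic receptor gene Gabbr1 (-0.32 ± 0.07, adjusted p = 0.0017).

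The genes whose pattern was most like each channel gene were sought by Pearson's r over the 8 group means among 1948 genes whose means spanned at least 1 log2 unit. These values are descriptions over 8 points that share arrays and groups. The highest r was 0.999 for Kcnn4 with the keratin gene Krt18, followed by Abcc3 (0.999) and Podxl (0.998). Scnn1a was most like Cds1 (0.996), Rab3d (0.993) and Mir203 (0.993). Scnn1b was most like Egln3 (0.994), Gdpd3 (0.99) and Lpin2 (0.99), and Scnn1g like Tmem45b (0.942), Arrb1 (0.941) and Lgalsl (0.93). Trpv3 was most like Cemip (0.986), Trpv4 like Heg1 (0.989), Trpv6 like Mtmr11 (0.953) and Gabrp like Klhl38 (0.989). Among the 8 genes themselves, r was 0.85 for Scnn1b with Scnn1g and -0.98 for Kcnn4 with Scnn1a, and Gabrp had values between -0.71 and 0.27 with the others.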

How the data were processed

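The authors deposited log2 expression values per probe set for 24 arrays, made with RMA per the submitters' processing notes; the version of RMA is not stated in the sources used here. Of the 34760 probe sets, 21640 carried 1 gene symbol, 1321 several and 11799 none, and array medians lay between 7.46 and 7.53. For each symbol the probe set with the highest mean over all arrays was kept, giving 19937 genes. With limma 3.58.1 (R 4.3.3), 1 mean per group was fitted to all 24 arrays, leaving 16 residual degrees of freedom, and two-sided p-values were Benjamini-Hochberg adjusted across the 19937 genes. Values carry no count depth, so 3 arrays per group limit the precision. On simulated data with changes added to 100 genes each, the fit for GW0742 in WT mock cells (19937 genes) recovered 94% of 1.5-fold and 99% of 2-fold changes, with 5 false calls among 198. The simulated noise was normal, independent and of 1 SD per gene in all groups. It thus met the assumptions of the fit, and these rates do not measure its performance on the real arrays.

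The members, the gene lists and the marker lists were chosen with earlier results of these data known. Named genes were the 8 members, up to 4 genes per list with the largest changes among those that passed in 3 set comparisons, and the 3 genes most like each member. Correlations of same-numbered replicates' deviations had medians of 0.011 to 0.025, the lowest being -0.29 and the highest 0.25, and replicate numbers were not used as pairs. This does not exclude a replicate effect on single genes. For Scnn1a with GW0742 in WT Hras cells, the SE was 0.08 with the replicate block, against 0.11 without it. Alternatives were median centring, leaving out the dimmest 40% of genes, trend and robust moderation, a replicate block, only the groups compared, and 1 array left out. The Hras transcript, Cdkn1a and Areg were not analysed here. Promoters came from RefSeq (GRCm38.p6).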

Additional observations from a re-analysis of the deposited data

Results flagged for a closer look

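Effects of Hras that differed between genotypes were found for 4 of the 8 genes by limma's test of the difference itself. Of all genes, 16.8% passed that test under DMSO and 24.1% under GW0742, and nothing is read from the count. Under DMSO the null minus WT difference was -3.36 for Gabrp, -0.58 for Kcnn4, 0.94 for Trpv3 and 0.36 for Trpv4. Under GW0742 it was -4.49 for Gabrp, -0.90 for Kcnn4, 0.87 for Trpv3 and 0.49 for Trpv4. All 4 genes kept the sign of the difference under both ligand conditions.

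Ligand effects also differed between Hras and mock cells of WT genotype by limma's test of the difference, by 1.10 for Scnn1b, 1.39 for Scnn1g and 0.62 for Trpv3 (2.47% of all genes passed). The other differences contain values that were known when the genes were chosen and are a description, with no test. The Hras minus mock difference of the ligand effect was 0.81 for Gabrp in WT cells, and 1.17 for Scnn1b, 1.42 for Scnn1g and -0.70 for Trpv6 in null cells. The null minus WT difference of the ligand effect in mock cells was 1.26 for Gabrp.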

How the results depend on the processing

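Of 144 changes of the 8 genes, 70 were past the threshold, those known at the choice of the genes included. Of these, 59 stayed past it in every fit with 1 array left out, 11 were lost in at least one, and 0 changed sign. Across the comparisons, the share of all genes that passed ran from 0% (GW0742 in null mock cells) to 41.8% (Hras in null GW0742 cells). Nothing is read from the count of 70. Of the 105 changes compared across settings, called or not, 104 kept their side of the threshold with median centring, 97 without the dimmest genes, 100 with trend and robust moderation and 98 with the replicate block. With only the groups compared, 88 kept their side, 12 lost a call and 5 gained one. With the replicate block, Scnn1a with GW0742 in null Hras cells passed (0.39, adjusted p = 0.00684) and Trpv6 in null against WT Hras DMSO cells did not (adjusted p = 0.0599). A model without the null Hras GW0742 group, chosen after seeing the data, left 64 of 67 changes, called or not, on their side of the threshold, and 3 gained a call. The labels do not say whether replicate numbers pair the samples, so the block is a variant only.

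The ligand counts in null Hras cells changed with the groups fitted. They include the values of Scnn1b, Scnn1g and Trpv6 that were known at the choice of the genes. With only the groups compared, 0 of the 8 genes passed there in place of 5, and 0 passed in place of 3 for the Hras minus mock difference in null cells. With GW0742 in WT Hras cells, Scnn1a (adjusted p = 0.138) and Trpv3 (adjusted p = 0.069) lost their calls in that setting. In null against WT mock DMSO cells 5 passed in place of 3, beside 1998 of all genes in place of 2076. With 1 array left out, the counts ran between 3 and 7 for GW0742 in null Hras cells, 0 and 2 for its null minus WT difference in Hras cells, 2 and 4 for the Hras minus mock difference in WT cells, and 2 and 6 for that in null cells. Counts over all genes in those fits were 393 to 2539, 240 to 651, 286 to 482 and 100 to 983, in that order. Scnn1b in null against WT Hras GW0742 cells, uncalled at 0.20, ran between -0.04 (without null Hras GW0742 replicate 2) and 0.33. The Gabrp difference of 0.81 between WT Hras and mock ligand effects contains a value known at that choice and is a description only. It ran between 0.72 and 0.91 with 1 array left out. The counts above for the Hras minus mock difference in WT cells include it. The cause was not tested.

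Over all genes, GW0742 in null Hras cells called 1001, against 0 with only the groups compared, 393 without null Hras GW0742 replicate 2, 2539 without replicate 1 of that group and 601 without null Hras DMSO replicate 1. GW0742 in WT Hras cells called 1219, against 775 with only the groups compared, and null against WT in Hras GW0742 cells 4201, against 1686. GW0742 in WT mock cells called 570, and 288 to 401 with 1 array left out. The Hras minus mock difference called 323 genes in null cells, and 31 with only the groups compared, 543 without the dimmest genes, 512 with trend and robust moderation and 100 to 983 with 1 array left out; in WT cells it called 492, down to 286 with 1 array left out. The null minus WT difference of the ligand effect called 344 genes in Hras cells (103 with only the groups compared, 651 without null Hras GW0742 replicate 1) and 169 in mock cells (291 and, with trend and robust moderation, 260). In null mock cells 0 genes were called, and up to 2 with 1 array left out. Each of the 8 genes has 1 probe set, so the alternative of another probe set gave no value.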
